A study of Homo sapiens with 18 samples.

Results

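Of the 57808 genes in the deposited count table, 10 imprinted genes of endocrine and fetal growth are described here: DLK1, MEG3, IGF2, H19, CDKN1C, PLAGL1, PEG3, PEG10, NNAT and GRB10. They were chosen by name, with earlier results of these data known and with no cutoff on any value, and all 10 were found. DLK1, IGF2, CDKN1C, PLAGL1, PEG10 and GRB10 had counts in at least 17 of 18 libraries, MEG3 in 16 and H19 in 13. PEG3 had counts in 4 libraries and NNAT in 7, with at most 8 counts in any library.

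Imprinted genes are expressed from the copy inherited from 1 parent only, as set by DNA methylation laid down in the germ line. Many of them act on growth before birth, and several are closely tied to the endocrine pancreas: loss of the normal imprint at PLAGL1 underlies transient neonatal diabetes, and faults at the IGF2 and CDKN1C domains underlie overgrowth with neonatal hypoglycaemia. They lie in clusters in which a protein-coding gene and a noncoding RNA are often expressed from opposite parental copies, such as DLK1 with MEG3 and IGF2 with H19. Gene counts sum both copies, so nothing below bears on which copy was expressed.

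The cells were MEL1 INS-GFP/W, an established human embryonic stem cell line in which GFP reports the insulin gene, taken at 3 stages: undifferentiated (hPSC), definitive endoderm (DE, the layer that forms gut and pancreas) and beta-like cells derived in stirred suspension (sBC). There were 9 groups, with 2 libraries in each. Transcripts were sequenced in hPSC, in DE and in sBC sorted as GFP+ or GFP-. Total ribosome footprints, the fragments of RNA that ribosomes protect from RNase, covered hPSC and DE (Ribo). Footprints pulled down through a FLAG tag on the ribosomal protein RPL22 covered hPSC, DE and sorted GFP+ sBC (IP-Ribo). By the labels hPSC and DE carried RPL22-FLAG in every assay, GFP+ sBC for IP-Ribo received RPL22-FLAG by lentivirus, and sBC for RNA-seq were GFP+ or GFP- with no tag named. The stage and the way the tag was carried change together, so their parts in a difference between sBC and the other stages cannot be told apart. All samples derive from 1 line. Whether paired libraries stem from independent cultures is not stated, so p-values measure the spread between these libraries, which may be technical.

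Libraries held 6.61 M to 92.5 M counts. INS, the defining beta cell marker, had 4396 and 4826 CPM (counts scaled to library size) in GFP+ sBC, 1701 and 980.2 CPM in GFP- sBC, and no counts in hPSC or DE. The 4 alpha cell markers summed to 24359 to 37050 CPM in GFP+ sBC, mostly the glucagon gene GCG, so libraries labelled beta-like also held an alpha cell hormone at a high level. The GFP- libraries stood apart from each other: mitochondrial genes took 0.42% of replicate 1 and 4.35% of replicate 2, and RPL22 had 2609 and 802 CPM. Levels below are CPM after normalization for library composition (TMM), and differences are log2 fold changes ± standard error from edgeR's quasi-likelihood test, with p-values adjusted over all genes tested and a threshold of 0.05.

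The noncoding members that moved most in the sort are shown with the 300 bases around their start (250 before and 50 after, RefSeq, GRCh38.p14), beside the window of PLAGL1 that lies at the start of the imprinted noncoding RNA HYMAI. RefSeq promoter entries matched 4 members, H19, MEG3, PLAGL1 and GRB10, with 14 windows. Capitals mark the cyclic AMP response element TGACGTCA and the TATA motif TATAAA, both searched on both strands.
MEG3, chr14:100825858-100826157, + strand: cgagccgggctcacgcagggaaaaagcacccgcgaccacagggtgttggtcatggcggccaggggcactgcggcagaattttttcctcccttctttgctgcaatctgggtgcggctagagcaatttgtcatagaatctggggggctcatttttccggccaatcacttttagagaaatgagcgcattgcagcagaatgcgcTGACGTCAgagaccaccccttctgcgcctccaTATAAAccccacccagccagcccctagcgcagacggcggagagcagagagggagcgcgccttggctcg
H19, chr11:2001217-2001516, - strand: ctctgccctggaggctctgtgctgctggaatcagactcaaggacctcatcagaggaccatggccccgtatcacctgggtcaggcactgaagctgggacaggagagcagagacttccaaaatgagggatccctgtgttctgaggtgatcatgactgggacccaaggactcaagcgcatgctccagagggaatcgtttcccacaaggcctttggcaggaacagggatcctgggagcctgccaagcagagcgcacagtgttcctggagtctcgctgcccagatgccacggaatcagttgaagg
PLAGL1, chr6:144008210-144008509, - strand: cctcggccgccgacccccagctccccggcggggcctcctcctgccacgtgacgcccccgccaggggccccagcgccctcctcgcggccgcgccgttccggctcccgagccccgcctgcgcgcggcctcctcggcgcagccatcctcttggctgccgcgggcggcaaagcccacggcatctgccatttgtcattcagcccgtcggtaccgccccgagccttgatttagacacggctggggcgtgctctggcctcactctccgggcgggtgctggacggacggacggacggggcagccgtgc
The MEG3 window held TGACGTCA at base 201 and TATAAA at base 233. Of 35116 promoter windows of this length, 1.85% held TGACGTCA and 11.5% held TATAAA. The H19 window and the PLAGL1 window shown held neither, while another of the 5 PLAGL1 windows held TATAAA. CG dinucleotides, the bases that imprinting methylates, numbered 39 in the PLAGL1 window shown (2 to 39 over its 5 windows), 19 in the MEG3 window and 6 in the H19 window, against a median of 14 over all windows. A match is a description of the letters, not of a bound factor.

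The sort of sBC by GFP compared the RNA of cells with and without an active insulin reporter. DLK1, MEG3 and H19 were lower in GFP+ than in GFP- sBC, with log2 fold changes of -4.31, -3.86 and -3.90, of which that of H19 varied most with the library left out (-2.56 to -4.58). IGF2 and CDKN1C had lower means in GFP+ sBC without passing the test, and PLAGL1, PEG10 and GRB10 were within 0.48 log2 units of equal. Of 8 members tested, 3 fell and none rose, where 2.43% of all 19797 genes tested were called (2.35% lower and 0.0808% higher). The median log2 fold change was -1.52 over the 8 members and 0.00 over all genes. Some groups below are said not to overlap. How many of all genes were separated in this way in the sort was not counted. Separation of 2 libraries from 2 others is therefore not read as particular to the members. In bulk samples, fewer cells of a type and less RNA per cell cannot be told apart.

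DLK1 (chr14:100726892-100738224) encodes a transmembrane and shed protein related to the Notch ligands that restrains differentiation (gene positions are those of RefSeq, GRCh38.p14). Its RNA was at 75.4 and 96.5 CPM in GFP+ sBC and at 2002 and 1404 CPM in GFP- sBC. Both GFP- libraries thus lay far above both GFP+ libraries, with a log2 fold change of -4.31 ± 0.41 (adjusted p = 0.00392). MEG3 (chr14:100826108-100861026), the noncoding RNA of the same cluster, was at 1.23 and 1.41 CPM in GFP+ sBC and at 18.0 and 20.3 CPM in GFP- sBC. Its groups did not overlap and its log2 fold change was -3.86 ± 0.43 (adjusted p = 0.00647). The GFP+ values of MEG3 rest on 43 and 53 counts.

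IGF2 (chr11:2129117-2149566) encodes the fetal insulin-like growth factor. It was at 1046 and 2238 CPM in GFP+ sBC and at 6194 and 8887 CPM in GFP- sBC, where it took 0.715% and 1.11% of all counts. The groups did not overlap, but the difference of -2.21 ± 0.49 did not pass (adjusted p = 0.0662). IGF2 passed in 7 of 10 other settings, among them the leaving out of GFP- replicate 1 (adjusted p = 0.0272) or GFP- replicate 2 (adjusted p = 0.0164) and a replicate block (adjusted p = 0.000694). It did not pass without GFP+ replicate 1 (adjusted p = 0.565) or GFP+ replicate 2 (adjusted p = 0.0773). H19 (chr11:1995176-2001266), the noncoding RNA downstream of IGF2, was at 172 and 163 CPM in GFP+ sBC and at 4032 and 965 CPM in GFP- sBC. Its log2 fold change was -3.90 ± 0.67 (adjusted p = 0.0286), and the GFP- libraries differed from each other by more than the GFP+ libraries did. Without GFP- replicate 1 it was -2.56, and without GFP- replicate 2 it was -4.58, both past the threshold.

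The ratio of IGF2 to H19 counts, read only between libraries since the transcripts differ in length, was 6.08 and 13.7 in GFP+ sBC. In GFP- sBC it was 1.54 and 9.21, so the ranges overlapped. It was 1.32 and 1.01 in hPSC and 30.7 and 69.1 in DE. The high ratio in DE goes with 41 and 17 counts of H19. The ratio of DLK1 to MEG3 counts was 5.20 and 4.26 in hPSC and 5.19 and 5.69 in DE. It was 61.1 and 68.3 in GFP+ sBC and 111 and 69.1 in GFP- sBC, higher in all 4 sBC libraries than in the 4 others.

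CDKN1C (chr11:2883218-2885775) encodes p57, an inhibitor of cyclin-dependent kinases that is part of the exit from the cell cycle. It was at 79.5 and 78.7 CPM in GFP+ and at 153 and 129 CPM in GFP- sBC (-0.84 ± 0.32, adjusted p = 0.319). The libraries did not overlap, yet the difference passed only in the fit of all 8 RNA libraries and without GFP- replicate 2 among the settings tried. PLAGL1 (chr6:143940300-144064599), a zinc finger transcription factor, was at 33.1 and 25.0 CPM against 22.4 and 19.2 CPM (0.48 ± 0.35, adjusted p = 0.664). Its libraries did not overlap either, with those of GFP+ sBC higher. PEG10 (chr7:94656325-94669695), derived from a retrotransposon and read by a ribosomal frameshift, was at 409 and 526 CPM against 332 and 496 CPM. These values overlapped (0.17 ± 0.35, adjusted p = 0.87). GRB10 (chr7:50590068-50793453), an adaptor that dampens insulin and IGF1 receptor signalling, was at 47.8 and 48.8 CPM against 49.4 and 46.9 CPM. Its values overlapped too, with a difference of 0.00 ± 0.33 on the log2 scale (adjusted p = 0.998).

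**Figure D1:**
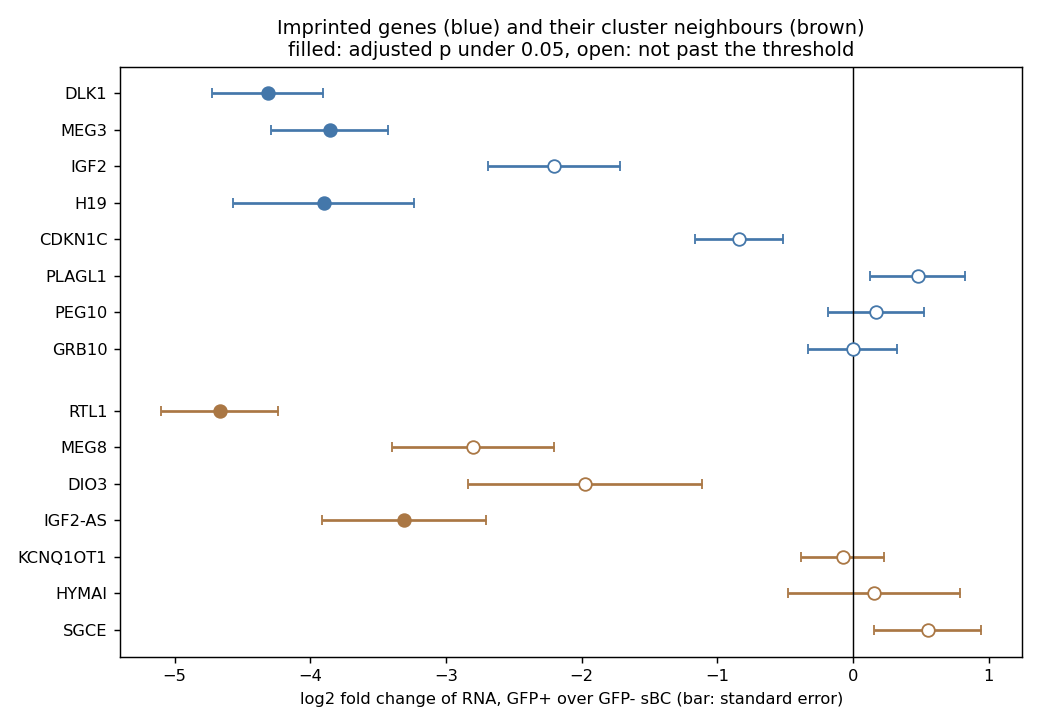
Log2 fold changes of RNA between GFP+ and GFP- sBC, with standard errors, for the 8 imprinted genes tested (blue) and genes of the same clusters (brown); filled points passed the threshold. DLK1, MEG3, H19, RTL1 and IGF2-AS lie between -4.67 and -3.31, and PLAGL1, PEG10, GRB10, KCNQ1OT1, HYMAI and SGCE lie near 0.

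Genes beside the members varied in the same sort. RTL1, a retrotransposon-derived gene between MEG3 and DIO3, was at 3.12 and 3.70 CPM in GFP+ and at 106 and 67.5 CPM in GFP- sBC, and fell by 4.67 ± 0.43 on the log2 scale (adjusted p = 0.00365). The noncoding MEG8 of that cluster was at -2.80 ± 0.60 (adjusted p = 0.0582) and DIO3, which inactivates thyroid hormone, at -1.98 ± 0.86 (adjusted p = 0.419). On chromosome 11 the antisense gene IGF2-AS fell (-3.31 ± 0.60, adjusted p = 0.0355), while KCNQ1OT1, the noncoding RNA of the CDKN1C domain, was at -0.08 ± 0.31 (adjusted p = 0.934). HYMAI was at 0.15 ± 0.63 (adjusted p = 0.936) and SGCE, beside PEG10, at 0.55 ± 0.39 (adjusted p = 0.653). RTL1 overlaps MEG8, IGF2-AS overlaps IGF2, HYMAI lies within PLAGL1, NNAT lies within BLCAP, and PEG3 overlaps ZIM2. Whether counting used strand is not given in the sources used here, so reads of overlapping genes may have been shared. INS-IGF2, a read-through of both genes, held at most 285 counts in a library.

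Markers of other cells moved with the same sort. The 9 markers of progenitor, duct and acinar cells summed to 198 and 313 CPM in GFP+ and to 1483 and 1378 CPM in GFP- sBC, with none at 0 in either group, and 5 of 9 fell. The 11 mesenchyme markers summed to 15.5 and 17.9 CPM in GFP+ and to 206 and 53.5 CPM in GFP- sBC, and 2 of 9 tested fell. The 6 beta cell markers summed to 4742 and 5068 CPM against 1979 and 1217 CPM, and none of 6 passed. INS made up most of these sums, and G6PC2 and IAPP were also higher in both GFP+ libraries. PDX1 was at 94.8 and 87.9 CPM in GFP+ against 89.5 and 82.7 CPM in GFP- sBC. NKX6-1 went the other way, at 107 and 115 CPM against 177 and 141 CPM. MAFA was at most 1.36 CPM in these libraries. Summed mesenchyme markers and H19 were both higher in GFP- replicate 1 than in replicate 2. The same held for DLK1, while MEG3 and IGF2 were higher in replicate 2. The part of these cells in the results for DLK1, MEG3 and H19 was not tested.

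Calls in lists of related genes stand beside 2.35% of all genes lower and 0.0808% higher in the sort. Of 39 other imprinted genes tested (48 listed), RTL1 and IGF2-AS fell and none rose, with a median of -0.03. Of 19 genes of the IGF system, IGFBP7, a secreted binding protein (-5.42 ± 0.65), and PAPPA, the protease that cleaves IGF binding proteins (-5.08 ± 0.48), fell (list median -0.13). The Notch pathway had 6 of 22 lower and none higher (median -0.70). They included the feedback gene NRARP (-4.37 ± 0.65), the target HEY1 (-3.25 ± 0.47) and the receptor NOTCH3 (-3.63 ± 0.68). Among 20 kinase inhibitors and partners of the G1 phase, cyclin D1 CCND1 (-4.41 ± 0.42) and the proliferation genes MKI67 (-4.60 ± 0.77) and TOP2A (-4.24 ± 0.59) fell, with a list median of -0.60. UHRF1, which brings DNMT1 to replicating DNA, was the 1 of 12 imprint maintenance genes that fell (-4.24 ± 0.83, list median -0.12).

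The step from hPSC to DE is the first of the differentiation. Most members rose in RNA: DLK1, MEG3 and IGF2 by more than 2 log2 units from low levels, PLAGL1, CDKN1C and GRB10 by about 1 or less. H19 fell and PEG10 did not pass. Of 8 members tested 6 rose and 1 fell, where 75.6% of 20634 genes were called (38.7% higher and 36.8% lower). The share of members called was therefore near that of all genes. The member median was 0.90 against 0.01 over all genes.

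DLK1 RNA was at 1.07 and 0.900 CPM in hPSC and at 5.51 and 6.25 CPM in DE, a rise of 2.63 ± 0.16 (adjusted p = 9.11e-08). IGF2 was at 2.77 and 1.53 CPM in hPSC and at 16.5 and 15.4 CPM in DE (2.94 ± 0.26, adjusted p = 0.000251). MEG3 was at 0.206 and 0.211 CPM against 1.06 and 1.10 CPM (2.41 ± 0.26, adjusted p = 9.58e-06). All 3 were low in hPSC, and both DE libraries lay above both hPSC libraries, as they also did for PLAGL1, CDKN1C and GRB10. How many of all genes were separated in this way was not counted. Since 75.6% of all genes were called here, the separation is not read as particular to the members. H19 went the other way, from 2.10 and 1.52 CPM in hPSC to 0.536 and 0.222 CPM in DE (-2.20 ± 0.36, adjusted p = 0.000689), and just missed the threshold in the fit of all 8 RNA libraries (adjusted p = 0.0532).

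PLAGL1 was at 4.35 and 2.69 CPM in hPSC and at 7.56 and 7.05 CPM in DE (1.11 ± 0.22, adjusted p = 0.00313). CDKN1C was at 15.6 and 14.7 CPM against 24.7 and 22.5 CPM (0.69 ± 0.08, adjusted p = 9.39e-06). GRB10 was at 131 and 139 CPM against 210 and 207 CPM (0.68 ± 0.05, adjusted p = 2.24e-07). DE thus held the highest GRB10 RNA of the 4 cell groups. PEG10, at 448 and 461 CPM against 417 and 403 CPM, differed by -0.10 ± 0.04 (adjusted p = 0.0682).

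Among other imprinted genes 17 of 36 tested rose and 17 fell in DE (median -0.01). The largest rises were those of DIO3 (6.03 ± 0.20) and the transporter gene SLC22A18 (3.21 ± 0.19), and RTL1 rose by 2.67 ± 0.35. GNAS-AS1 (-4.94 ± 0.42) and ASCL2, a transcription factor of the placenta (-3.55 ± 0.50), fell most. In the IGF system 7 of 18 rose, such as IGFBP6 (4.23 ± 0.15), and 5 fell, such as IGFBP2 (-0.75 ± 0.07), with a list median of -0.11. Of 22 Notch genes 8 rose, HES4 the most (5.55 ± 0.12), and 11 fell, HEY2 the most (-2.90 ± 0.09), with a list median of -0.35. Of 20 genes of the cell cycle list 11 rose, with the kinase inhibitor CDKN2B highest (6.78 ± 0.17), and 7 fell (median 0.44). Of 16 imprint maintenance genes 5 rose, with DNMT3L, the partner of de novo methylation, at 5.19 ± 0.19, and 9 fell, with DNMT3B at -3.42 ± 0.06 (median -0.36).

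The sBC stages were set against DE and hPSC in a fit of all 8 RNA libraries. IGF2, DLK1, H19 and CDKN1C were higher in both GFP+ and GFP- sBC than in DE, PLAGL1 too, and GRB10 was lower in both. PEG10 kept a level of 332 to 526 CPM in all 8 libraries. Against DE, 5 members rose and 1 fell in GFP+ sBC, where 60.7% of 23321 genes were called (29.9% higher and 30.9% lower). In GFP- sBC 6 rose and 1 fell, where 58.5% were called (30.4% higher and 28.1% lower). Against hPSC, 6 rose and 1 fell in GFP+ sBC, where 61.3% were called (30.4% higher and 30.9% lower). The member medians were 1.87, 3.36 and 2.85 in that order, against 0.00, 0.09 and 0.04 over all genes. These comparisons share the DE, hPSC or GFP+ libraries.

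H19 rose from 0.379 ± 0.222 CPM in DE (SD, n = 2) to 167 ± 6.36 CPM in GFP+ and 2498 ± 2169 CPM in GFP- sBC. Its log2 fold change against DE was 8.78 ± 0.86 in GFP+ (adjusted p = 0.000135) and 12.68 ± 0.98 in GFP- sBC (adjusted p = 5.79e-05). IGF2 rose from 15.9 ± 0.771 CPM in DE to 1642 ± 843 CPM in GFP+ sBC (6.69 ± 0.51, adjusted p = 4.49e-05) and 7541 ± 1904 CPM in GFP- sBC (8.89 ± 0.56, adjusted p = 2.73e-05). DLK1 rose from 5.88 ± 0.529 CPM to 85.9 ± 15.0 CPM in GFP+ sBC (3.87 ± 0.26, adjusted p = 2.52e-05) and 1703 ± 423 CPM in GFP- sBC (8.18 ± 0.31, adjusted p = 7.3e-06). For all 3 genes GFP- sBC had the highest mean of the 4 cell groups and GFP+ sBC the next.

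MEG3 followed DLK1 only in part. In GFP+ sBC it was at 1.32 ± 0.127 CPM and in DE at 1.08 ± 0.0282 CPM, a difference of 0.29 ± 0.25 that did not pass (adjusted p = 0.329). In GFP- sBC it was at 19.1 ± 1.66 CPM and rose by 4.15 ± 0.26 against DE (adjusted p = 2.42e-05). Against hPSC, at 0.208 ± 0.00354 CPM, GFP+ sBC rose by 2.65 ± 0.28 (adjusted p = 0.000152).

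CDKN1C, which had risen from hPSC to DE, rose again from 23.6 ± 1.51 CPM in DE to 79.1 ± 0.605 CPM in GFP+ sBC (1.74 ± 0.18, adjusted p = 0.000165). PLAGL1 rose from 7.31 ± 0.358 CPM in DE to 29.0 ± 5.78 CPM in GFP+ sBC (1.99 ± 0.29, adjusted p = 0.000861) and 20.8 ± 2.27 CPM in GFP- sBC (1.51 ± 0.29, adjusted p = 0.00326). PLAGL1 was the 1 member of the 5 that rose in GFP+ sBC whose mean was higher in GFP+ than in GFP- sBC, though that difference did not pass. GRB10 fell from 208 ± 2.06 CPM in DE to 48.3 ± 0.679 CPM in GFP+ (-2.11 ± 0.17, adjusted p = 4.65e-05) and 48.2 ± 1.76 CPM in GFP- sBC (-2.11 ± 0.17, adjusted p = 5.7e-05). GRB10 in GFP+ sBC was also lower than in hPSC (-1.48 ± 0.16, adjusted p = 0.000191).

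**Figure D2:**
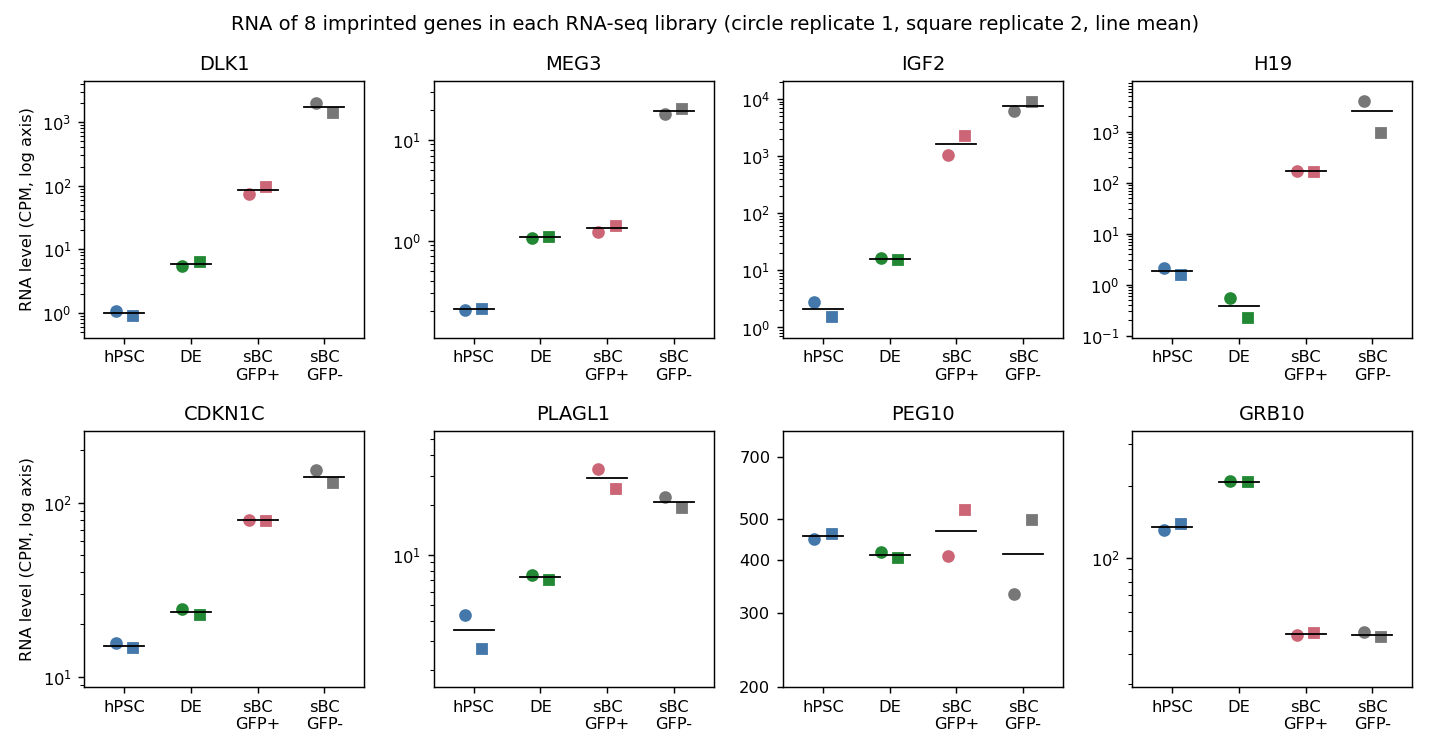
RNA levels (CPM, log axes that differ between panels) of 8 imprinted genes in the 8 RNA-seq libraries; circles are replicate 1, squares replicate 2 and lines group means. DLK1, IGF2 and H19 are highest in GFP- sBC, GRB10 is highest in DE at 210 and 207 CPM, and PEG10 stays between 332 and 526 CPM.

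Ordered by mean RNA level, DLK1, MEG3, IGF2 and CDKN1C ran from hPSC through DE and GFP+ sBC to GFP- sBC. In that order the neighbouring groups that did not pass were DE and GFP+ sBC for MEG3, and GFP+ and GFP- sBC for IGF2 and CDKN1C. H19 ran from DE through hPSC and GFP+ sBC to GFP- sBC, and each neighbouring pair passed. PLAGL1 ran from hPSC through DE and GFP- sBC to GFP+ sBC, and the last pair did not pass. GRB10 ran from both sBC groups, which did not differ beyond their spread, through hPSC to DE. PEG10 had no neighbouring pair that passed among those tested.

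PEG3 (chr19:56810082-56840726), a zinc finger gene, had 8 counts in GFP- sBC RNA replicate 2 and at most 3 in any footprint library, and none in the 7 other RNA libraries. NNAT (chr20:37521250-37523690), which encodes a small membrane protein of neurons and beta cells, had 4.47 to 8 counts in each hPSC and DE RNA library and none in the 4 sBC RNA libraries. A count of 0 over both GFP+ RNA libraries allows a level of up to 0.0414 CPM for either gene, from 3 counts and for counting error only. NNAT RNA in DE, from 13 counts over both libraries, was 2.05-fold above that level. This fold leaves out the error of the DE counts and the spread between libraries, so it is no lower bound. Neither gene passed the filter on low counts in any of 15 comparisons.

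**Figure D3:**
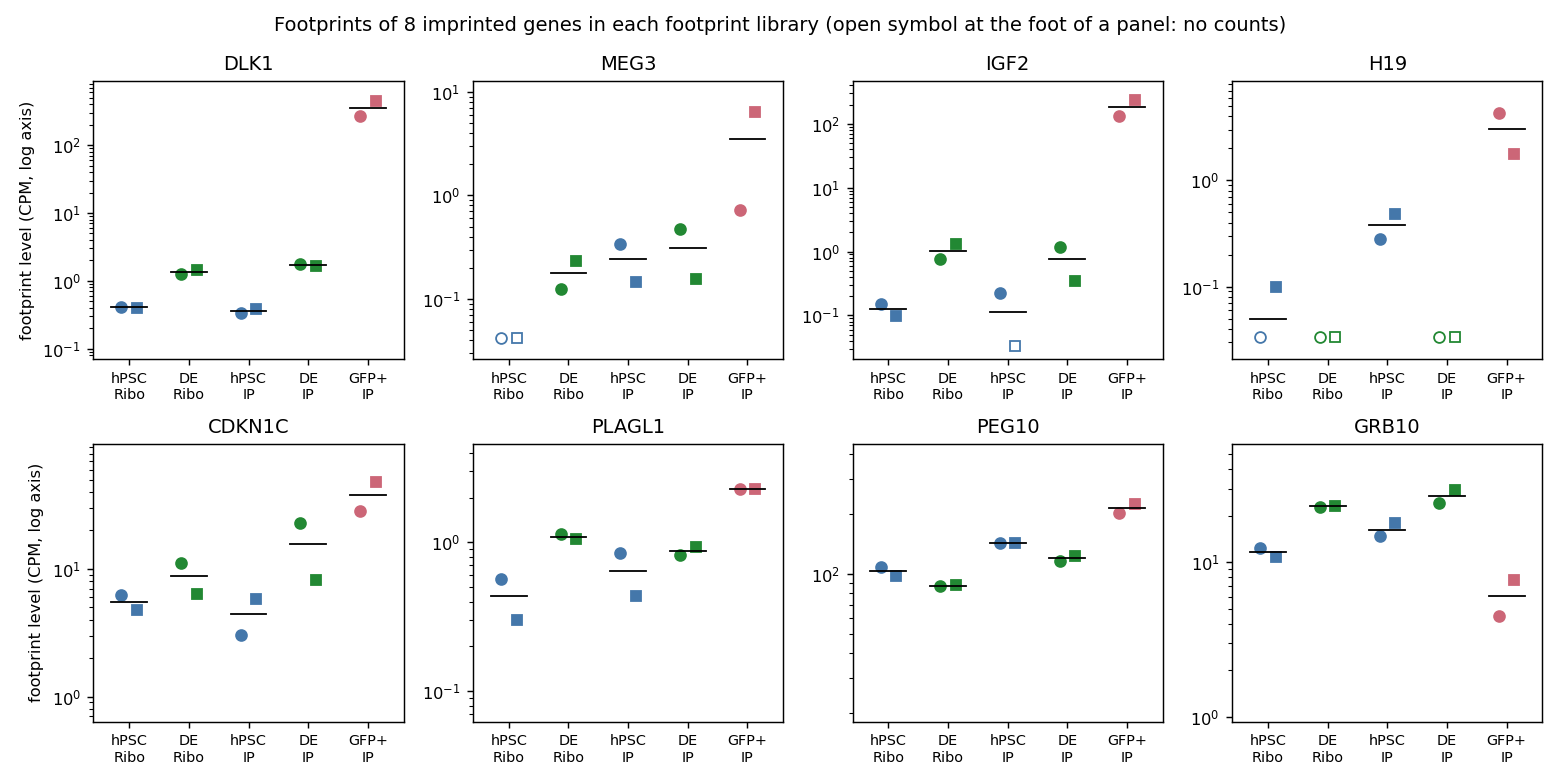
Footprint levels (CPM, log axes that differ between panels) of 8 imprinted genes in the 10 footprint libraries, by total footprints (Ribo) and FLAG footprints (IP); open symbols mark libraries without counts. GFP+ sBC stand highest for DLK1, at 267 and 439 CPM, and lowest for GRB10, at 4.46 and 7.72 CPM.

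Footprint counts are read as RNAs on ribosomes, but some may come from other protected fragments. Features with over 5% of counts in a library included the noncoding RNU11 in IP-Ribo and LINC01783 in Ribo. Whether counts of noncoding genes came from ribosomes was not tested. Between hPSC and DE, DLK1 footprints rose in both assays, IGF2 and GRB10 rose in total footprints, and no footprint of H19 was counted in DE. In IP-Ribo 1 of 7 members tested rose and 1 fell, where 22.3% of 16018 genes were called (9.78% higher and 12.5% lower). In Ribo 3 of 6 rose and none fell, where 34.1% of 15454 were called (17.2% higher and 16.9% lower). MEG3 did not pass the filter in either assay and H19 did not in Ribo. The member medians were 0.72 in IP-Ribo and 1.16 in Ribo, against -0.07 and 0.03 over all genes.

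DLK1 had 0.339 and 0.385 CPM in hPSC and 1.76 and 1.63 CPM in DE by IP-Ribo (2.19 ± 0.39, adjusted p = 0.00921). Those DLK1 levels rest on 6 and 8 counts in hPSC and 15 and 42 counts in DE. The call was lost without hPSC replicate 1 (adjusted p = 0.0652) and without hPSC replicate 2 (adjusted p = 0.0536). By Ribo it had 0.418 and 0.399 CPM against 1.26 and 1.43 CPM (1.71 ± 0.45, adjusted p = 0.0374), a call that 3 of 10 other settings kept and that was lost without any 1 of the 4 libraries. The values of DLK1 did not overlap between stages in either assay, but how many of all genes were separated in this way was not counted. GRB10 had 12.4 and 10.8 CPM in hPSC and 22.9 and 23.2 CPM in DE by Ribo (0.99 ± 0.16, adjusted p = 0.0102), a call lost without hPSC replicate 1 or 2. Without TMM, GRB10 took 0.00146% and 0.00123% of Ribo counts in hPSC and 0.00120% and 0.00327% in DE. On that scale the stages overlapped, and the DE libraries differed from each other. By IP-Ribo GRB10 had 14.7 and 17.9 CPM in hPSC and 24.3 and 29.3 CPM in DE (0.72 ± 0.30, adjusted p = 0.129). IGF2 rested on few footprints: 4 and 3 counts in hPSC and 12 and 45 counts in DE by Ribo (3.02 ± 0.66, adjusted p = 0.0221). That call was lost with the replicate block and without hPSC replicate 1, hPSC replicate 2 or DE replicate 2. H19 had 5 and 10 counts in hPSC and none in DE by IP-Ribo (adjusted p = 0.0442). Its hPSC level was 4.44-fold above the one that 3 counts over both DE libraries would give, without the error of the hPSC counts. The call for H19 was lost in 8 of 12 other settings, with the replicate block (adjusted p = 0.076) and the leaving out of any 1 of the 6 libraries among them.

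In GFP+ sBC, FLAG footprints of DLK1 and IGF2 were far above those of the other stages, those of PEG10 and H19 were also higher, and those of GRB10 were lower. Against DE 4 of 7 members rose and 1 fell, where 52.6% of genes were called (27.8% higher and 24.8% lower). Against hPSC 6 rose and 1 fell, where 58.9% were called (30.4% higher and 28.5% lower). The member medians were 1.37 and 2.96, against -0.03 and -0.01 over all genes. Both comparisons share the GFP+ libraries.

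DLK1 footprints were at 267 and 439 CPM in GFP+ sBC, 7.70 ± 0.37 log2 units above DE (adjusted p = 1.89e-05). IGF2 footprints were at 132 and 234 CPM in GFP+ sBC, against 1.17 and 0.350 CPM in DE (8.17 ± 0.85, adjusted p = 0.000609). Neither gene had a DE library above 1.76 CPM. H19 had 30 and 12.7 counts in GFP+ sBC and none in DE (adjusted p = 0.00303). Its GFP+ level was 33.9-fold above the one that 3 counts over both DE libraries would give. PEG10 was at 203 and 225 CPM against 116 and 124 CPM in DE (0.84 ± 0.20, adjusted p = 0.00922), while its RNA did not pass between these stages. That call was lost without GFP+ replicate 2 (adjusted p = 0.127). GRB10 was at 4.46 and 7.72 CPM in GFP+ sBC, lower than in DE by 2.13 ± 0.33 log2 units (adjusted p = 0.00133).

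CDKN1C was at 28.3 and 47.8 CPM in GFP+ sBC and at 22.9 and 8.25 CPM in DE (1.31 ± 0.57, adjusted p = 0.0998). Against the 3.05 and 5.82 CPM of hPSC it rose by 3.10 ± 0.61 (adjusted p = 0.00571). PLAGL1 was at 2.30 CPM in both GFP+ libraries and at 0.822 and 0.934 CPM in DE (1.37 ± 0.67, adjusted p = 0.122). It passed against hPSC (1.84 ± 0.67, adjusted p = 0.0473), but in only 2 of 11 other settings, and not without any 1 of the 6 libraries. H19 (2.96 ± 0.87, adjusted p = 0.0253) and PEG10 (0.59 ± 0.19, adjusted p = 0.0335) also rose against hPSC. Both calls were lost without either hPSC library and without GFP+ replicate 1, and that of PEG10 without GFP+ replicate 2 too. MEG3 had 5 counts in GFP+ replicate 1 and 47 in replicate 2 and did not pass the filter.

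Related lists moved widely in the same footprints. Of 32 other imprinted genes tested 12 rose against DE and 5 fell (median 0.35). RTL1, at 36.2 and 51.0 CPM in GFP+ sBC from 1 and 14 counts in DE, rose by 6.72 ± 0.51 (adjusted p = 5.76e-05). Of 19 genes of the IGF system 11 rose and 4 fell (median 3.14), with IGFBP3 at 8.14 ± 0.40 and IGFBP5 at 6.73 ± 0.83. The receptor IGF1R (3.14 ± 0.24) and IGF2R, which clears IGF2 and is a maternally expressed gene in mice (5.51 ± 0.34), were among those that rose. The 3 mRNA-binding proteins IGF2BP1 (-1.50 ± 0.21), IGF2BP2 (-0.88 ± 0.23) and IGF2BP3 (-1.75 ± 0.27) fell. Of 21 Notch genes 12 rose, such as the ligand JAG1 (8.69 ± 0.63), and 3 fell (median 2.77). Of 19 genes of the cell cycle list 5 rose, with CDKN1A at 4.05 ± 0.39, and 10 fell, with CCNE1 at -6.21 ± 0.41 (median -1.29). Of 15 imprint maintenance genes 2 rose and 7 fell, with DNMT3B at -6.90 ± 0.57 (median -0.64).

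RNA of the same lists, GFP+ sBC against DE, is given beside these. Of 41 other imprinted genes 13 rose and 11 fell (median -0.11), of 21 IGF system genes 10 rose and 6 fell (median 0.87), and of 22 Notch genes 7 rose and 9 fell (median -0.31). Of 20 cell cycle genes 2 rose, CDKN1A (4.26 ± 0.28) and RBL2 (0.78 ± 0.25), and 15 fell, MKI67 the most (-6.98 ± 0.78), with a median of -2.32. Of 16 imprint maintenance genes 2 rose, KDM1B (1.65 ± 0.30) and TET2 (1.44 ± 0.24), and 11 fell, DNMT3B among them (-7.39 ± 0.67), with a median of -1.12. CDKN1C, a kinase inhibitor like CDKN1A, rose in the same RNA comparison, while the kinase inhibitor CDKN2A fell (-5.29 ± 0.75).

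Within a stage, IP-Ribo was set against RNA, which gives footprints per RNA relative to all genes, since the libraries were made in different ways. DLK1 stood near the median of all genes in hPSC and DE and far above it in GFP+ sBC. IGF2, PLAGL1 and GRB10 were low in all 3 stages, and H19, a noncoding RNA, was low in GFP+ sBC. In hPSC 4 of 8 members were lower and none higher, where 59.2% of 22210 genes were called (25% higher and 34.2% lower). In DE 3 were lower and none higher, where 52.6% were called (25.5% higher and 27.1% lower). In GFP+ sBC 2 were higher and 4 lower, where 56.7% were called (28% higher and 28.8% lower). The medians of all genes were -0.48, -0.23 and -0.10, and with the median-of-ratios scaling of DESeq2 that of hPSC was -0.24. The directions of the called members held under that scaling, though in hPSC IGF2 and PEG10 no longer passed.

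**Figure D4:**
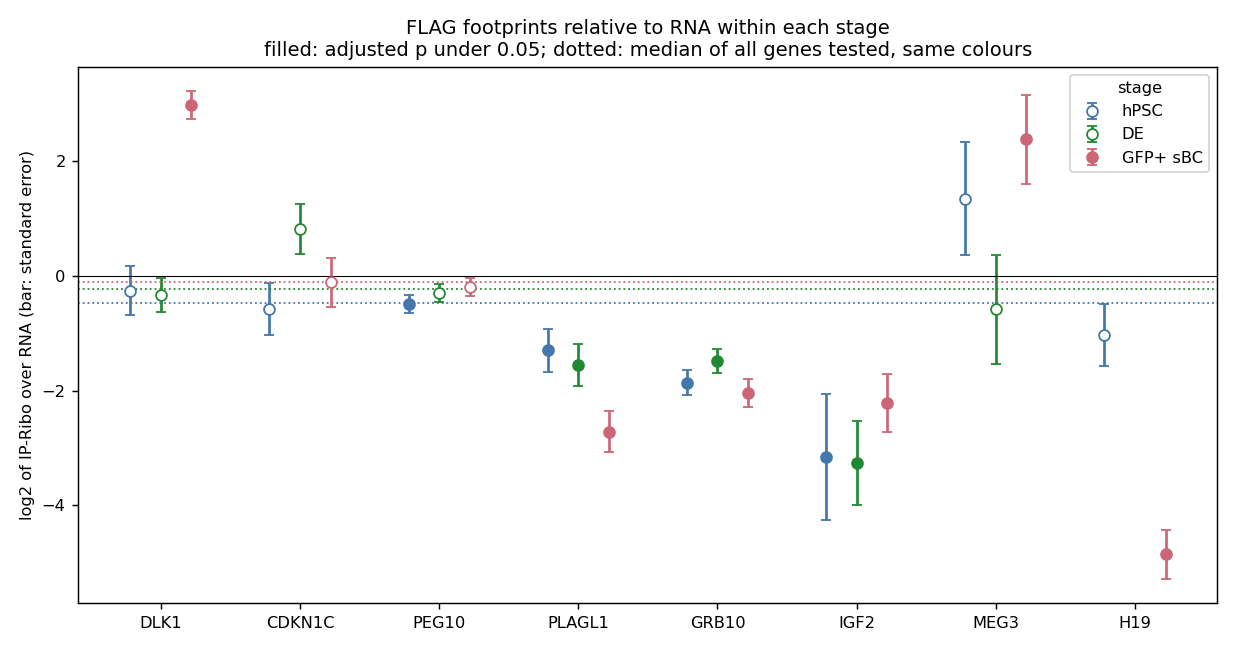
Log2 of FLAG footprints over RNA, with standard errors, for 8 imprinted genes within hPSC, DE and GFP+ sBC; filled points passed the threshold and dotted lines are the medians of all genes. DLK1 stands at 2.98 in GFP+ sBC and near 0 in the other stages; H19 in DE is not drawn because it had no footprints there.

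DLK1 was at -0.25 ± 0.43 in hPSC (adjusted p = 0.632), at -0.33 ± 0.30 in DE (adjusted p = 0.371) and at 2.98 ± 0.25 in GFP+ sBC (adjusted p = 4.24e-06). H19 was at -1.03 ± 0.54 in hPSC (adjusted p = 0.124) and at -4.86 ± 0.42 in GFP+ sBC (adjusted p = 1.05e-05). DLK1 and H19 thus stood on opposite sides of the median in GFP+ sBC. The protein-coding IGF2, PLAGL1 and GRB10 lay below it like the noncoding H19, so the side did not follow coding status. MEG3, also noncoding, was at 2.38 ± 0.78 in GFP+ sBC (adjusted p = 0.0226), but at -0.14 without IP-Ribo replicate 2, the library that holds 47 of its footprints there against 5 in replicate 1. Its call was also lost without either GFP+ RNA library. Of noncoding neighbours, KCNQ1OT1 was at -4.34 ± 0.33 in GFP+ sBC (adjusted p = 2.34e-06) and MEG8 at 2.21 ± 0.80 (adjusted p = 0.0366).

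IGF2 was at -3.16 ± 1.10 in hPSC (adjusted p = 0.0333), at -3.26 ± 0.73 in DE (adjusted p = 0.00506) and at -2.22 ± 0.51 in GFP+ sBC (adjusted p = 0.00534). The hPSC value rests on 4 footprints and kept its call in 10 of 18 other settings. It was at -2.02 without hPSC IP-Ribo replicate 2 (adjusted p = 0.206), and the DE value at -2.56 without DE IP-Ribo replicate 2 (adjusted p = 0.0872). PLAGL1 was at -1.29 ± 0.38, -1.55 ± 0.37 and -2.72 ± 0.36 in the same order, and GRB10 at -1.86 ± 0.21, -1.48 ± 0.21 and -2.04 ± 0.24. Every one of these 6 values passed (adjusted p from 3.12e-05 to 0.0126), but PLAGL1 in hPSC did not without hPSC IP-Ribo replicate 2 (-0.83, adjusted p = 0.151) or hPSC RNA replicate 1 (-0.93, adjusted p = 0.107). CDKN1C did not pass in any stage (-0.57 ± 0.45, 0.83 ± 0.44 and -0.11 ± 0.43). PEG10 was at -0.49 ± 0.15 in hPSC (adjusted p = 0.0186), near the median of all genes, a call lost without any 1 of the 4 hPSC libraries. It did not pass in DE or GFP+ sBC.

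The change of footprints per RNA between stages (translational efficiency) was tested as an interaction of assay and stage. Between DE and hPSC none of 8 members passed, where 0.167% of genes were called (22 genes or 0.0991% higher and 15 genes or 0.0675% lower, or 15 and 19 with the median-of-ratios scaling). By edgeR 0 of the 8 had an unadjusted p under 0.05, and by DESeq2, which called 752 genes, 0 passed. Against hPSC, DLK1 was higher in GFP+ sBC and H19 lower, where 15% were called (2443 genes or 11% higher and 884 or 3.98% lower; 2179 and 1305 with the other scaling). Against DE, DLK1 alone of the 8 passed, where 14.2% were called (8.84% higher and 5.32% lower).

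The interaction for DLK1 was 3.24 ± 0.46 against hPSC (adjusted p = 0.00118) and 3.32 ± 0.37 against DE (adjusted p = 0.000452). It kept its call in 17 of 17 other settings in both comparisons, which share the GFP+ libraries. IP-Ribo counts of DLK1 were low in the other stages, at 6 and 8 in hPSC and 15 and 42 in DE. By the labels GFP+ cells for IP-Ribo received the tag by lentivirus, and those for RNA-seq had no tag named. No setting changes that difference, and its part in the interaction was not tested. H19 was at -3.83 ± 0.77 against hPSC (adjusted p = 0.00966), a call lost without hPSC IP-Ribo replicate 2 (adjusted p = 0.113). RTL1, the neighbour of DLK1, was at 4.10 ± 0.57 against DE (adjusted p = 0.00119). IGF2R was at 2.76 ± 0.32 (adjusted p = 0.000532).

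Markers of other cells moved with these footprints as well. The 9 progenitor, duct and acinar markers summed to 198 and 313 CPM in GFP+ RNA and to 982 and 1123 CPM in GFP+ IP-Ribo. RNA and footprint levels were scaled apart, so sums are not read against each other. KRT19 held 589 and 639 CPM of the IP-Ribo sums. Footprints per RNA of KRT19 were at 2.40 ± 0.32 in GFP+ sBC, 2.27 ± 0.32 in DE and 1.84 ± 0.31 in hPSC. PTF1A alone was at 0 in GFP+ IP-Ribo. Of 8 markers tested 6 were higher in footprints than in RNA, where 28% of all genes were. The duct chloride channel CFTR was at 8.54 and 8.79 CPM in GFP+ RNA, 399 and 829 CPM in GFP- RNA and 254 and 391 CPM in GFP+ IP-Ribo. Its footprints per RNA in GFP+ sBC were at 6.16 ± 0.33 (adjusted p = 3.79e-07), and those of SOX9, a factor of duct and progenitor cells, at 2.53 ± 0.40 (adjusted p = 0.000387). The 11 mesenchyme markers summed to 15.5 and 17.9 CPM in GFP+ RNA and to 74.9 and 46.1 CPM in GFP+ IP-Ribo. INS, the beta cell hormone, was at 0.45 ± 0.19 (adjusted p = 0.0763). CFTR and SOX9, like DLK1 and RTL1, were lower in GFP+ than in GFP- RNA. The part of such cells in the footprint result for DLK1 was not tested.

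**Figure D5:**
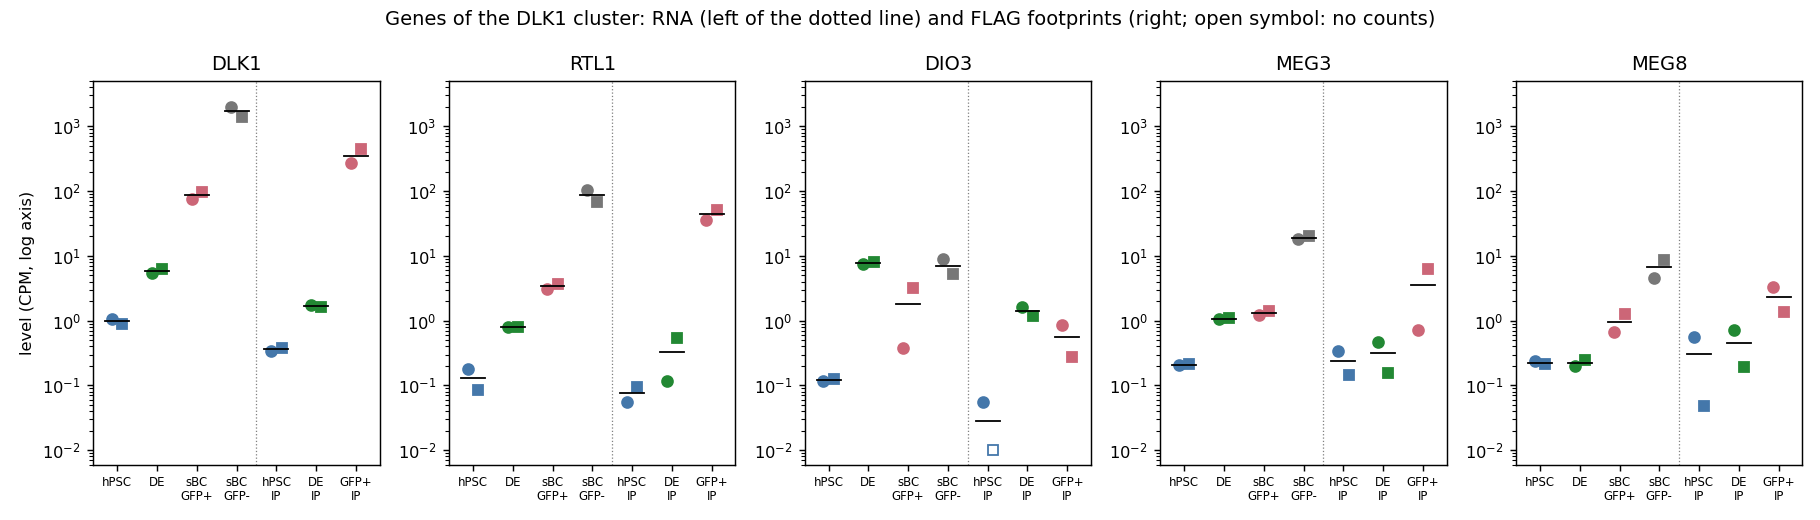
Levels (CPM, one log axis for all panels) of DLK1, RTL1, DIO3, MEG3 and MEG8 in RNA-seq (left of the dotted line) and FLAG footprints (right); open symbols mark libraries without counts. DLK1 and RTL1 RNA is highest in GFP- sBC and their FLAG footprints are highest in GFP+ sBC, while DIO3 RNA is highest in DE and GFP- sBC. RNA and footprint levels were scaled apart, so their heights are not read against each other.

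The DLK1 cluster did not move as a block. RTL1 RNA rose with DLK1 from DE to GFP+ sBC (2.08 ± 0.33, adjusted p = 0.00125), and MEG8 did too (2.10 ± 0.49, adjusted p = 0.00792). DIO3 RNA, at 7.48 and 8.11 CPM in DE, was at 0.373 and 3.22 CPM in GFP+ sBC and fell by 2.11 ± 0.78 (adjusted p = 0.0466). In GFP- sBC it was at 8.88 and 5.31 CPM and did not pass against DE (-0.13 ± 0.73, adjusted p = 0.886). On chromosome 11, KCNQ1OT1 rose from 41.7 and 42.1 CPM in DE to 376 and 336 CPM in GFP+ sBC (3.09 ± 0.17, adjusted p = 1.15e-05), beside the rise of CDKN1C. SGCE, whose start lies next to that of PEG10, rose from 6.34 and 5.89 CPM in DE to 33.5 and 30.3 CPM in GFP+ sBC (2.38 ± 0.30, adjusted p = 0.000409), while PEG10 did not pass (0.19 ± 0.23, adjusted p = 0.494).

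The genes whose RNA followed each member most closely over the 8 RNA libraries were ranked by Pearson's r of log2 CPM among 10718 genes, as a description over 4 cell groups. For DLK1 they included PRDM4 (r = 0.991) and TNFRSF10B (0.989). For IGF2 they were GLIS3 (0.996), TRANK1 (0.995) and CDKN1C (0.994), and for CDKN1C they included ECE1 (0.995) and IGF2 (0.994). For H19 they were RASSF4 (0.995), C1orf116 (0.995) and GOLM1 (0.993). PLAGL1 was followed by EPHA4 (0.992), NRCAM (0.991) and ATP9A (0.990), GRB10 by RBM8A, CHD1L and PDHA1 (0.998 to 0.999), and PEG10 by HDX (0.982), RUNX1T1 (0.959) and GHITM (0.950). The 8 libraries share the 4 groups and their depths. MEG3, PEG3 and NNAT were too low to be compared.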

How the data were processed

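Values are estimated counts per gene in 1 table deposited by the authors, with 18 libraries on build GRCh38. The submitters' processing notes name cutadapt, UMI-tools, Bowtie, Salmon and DESeq2; versions, roles and annotation are not given in the sources used here. Per the labels' protocols, ribosomal RNA was removed by RNase H for RNA-seq, and lysates for footprints held no cycloheximide and were digested with RNase I. Between 16.8% and 31.3% of values per library were not whole, and all were rounded before testing.

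The robust quasi-likelihood test of edgeR 4.0.16 (R 4.3.3) gave 15 comparisons, after filterByExpr and TMM scaling, with Benjamini-Hochberg adjustment and a threshold of 0.05. Fits held 4 libraries for the sort, for RNA of DE against hPSC and for Ribo, 8 for RNA of sBC against DE or hPSC, 6 for IP-Ribo and 12 for footprints against RNA. Standard errors are the log2 fold change divided by the root of F. A group without counts was given a floor of 3 counts over its 2 libraries. Folds against that floor take the counts of the other group as free of error. Shares and floors cover counting error only. Alternatives were DESeq2 1.42.0, its size factors (RLE), no filter, the replicate number as a block, each library left out, total footprints in place of IP-Ribo, all 8 RNA libraries, and removal of mitochondrial genes and features over 5% of counts. The scripts were tested on simulated counts.

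The members and lists were chosen with earlier results of these data known. All members are named. From each of 5 lists the text names genes among the up to 4 largest changes past the threshold per direction in 4 comparisons. Genes most like a member (3 each) were sought where the member's mean log2 CPM reached 1 and the other gene's reached 3. For DLK1 and CDKN1C, 1 of the 3 is not reported here. Cluster neighbours, IGF1R, IGF2R, INS, CFTR, SOX9 and KRT19 were also named, outside that rule, some after their values were seen. Replicate numbers were not taken as pairs: no label says that a number is shared, and correlations of replicate differences ran from -0.24 to 0.15.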

Additional observations from a re-analysis of the deposited data

Results flagged for a closer look

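For DLK1 and H19, the change between stages differed between RNA and FLAG footprints by the test of the interaction. DLK1 stood at 3.24 log2 units for GFP+ sBC against hPSC and at 3.32 against DE, both with footprints rising more than RNA. H19 stood at -3.83 against hPSC, with footprints rising less than RNA. In GFP+ sBC, IP-Ribo and RNA-seq also differ in the tag that the labels name, and the part of this was not tested. No group was large enough to look for single libraries far from the rest.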

How the results depend on the processing

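Of 63 member results past the threshold, 47 kept their direction and call in every alternative run for them, and of 1466 member values under alternatives 1335 kept both direction and side of the threshold, 65 no longer passed, 43 newly passed and 23 changed sign. The cause of these changes was not tested. Where leaving out a library left a group with 1 library, that library was assumed to vary like the others. Levels under plain totals lay within 1 SD for 55 of 90 values. Low footprint counts of DLK1, MEG3, H19 and IGF2 in hPSC and DE limit what could be detected, as do 2 libraries per group.

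Members past the threshold in the sort numbered 5 in the fit of all 8 RNA libraries, and 3 to 5 with 1 library left out. For IP-Ribo of DE against hPSC they numbered 4 without the filter and 0 to 2 with 1 library left out. For IP-Ribo of GFP+ sBC against hPSC they ranged from 4 to 7, and for Ribo from 0 to 2, with 1 library left out. For translational efficiency against DE the range was 1 to 2. Within hPSC they numbered 2 with RLE size factors and 1 to 4 with 1 library left out. Within DE they numbered 5 by DESeq2, 6 without mitochondrial and dominant features, and 3 to 6 with 1 library left out.

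Replicate numbers were not taken as pairs, since correlations of same-numbered samples ran from -0.24 to 0.15 over the pairs of groups (0.077 between GFP+ and GFP- sBC, 0.148 between GFP+ RNA and GFP+ IP-Ribo). With the replicate number as a block, members past the threshold numbered 1 for IP-Ribo of DE against hPSC, 4 for IP-Ribo of GFP+ sBC against hPSC and 1 for Ribo, and PEG10 in GFP- sBC against DE was at -0.0118. The block raised the calls over all genes in the sort from 481 to 1258. Since the numbers of hPSC and DE ran opposite in IP-Ribo (-0.24) and Ribo (-0.15), the block with DE numbers exchanged was added after the data were seen. It gave 3642 and 5086 genes past the threshold, with 2 members in each.

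Some signs changed. In the sort PEG10 ranged from -0.12 to 0.50 and GRB10 from -0.0244 to 0.00987 with 1 library left out, and GRB10 was at 0.00435 in the fit of 8 libraries. PEG10 ranged from -0.0691 to 0.31 for GFP+ sBC against hPSC and from -0.35 to 0.31 for GFP- sBC against DE, where it was at -0.00421 without the filter. In translational efficiency against hPSC, with 1 library left out, MEG3 ranged from -1.56 to 1.63, IGF2 from -0.38 to 6.85, CDKN1C from -0.24 to 0.80 and PEG10 from -0.0519 to 0.49. Against DE, PEG10 ranged from -0.0491 to 0.31, and H19 was at -1.30 by DESeq2. With total footprints in place of IP-Ribo, values within hPSC were 0.38 for DLK1 and 0.19 for CDKN1C. The fitted value for MEG3 there, -6.17, comes from libraries without MEG3 counts and is no bound or estimate of size. CDKN1C within DE ranged from -0.26 to 1.16. Within GFP+ sBC, MEG3 ranged from -0.14 to 3.05 and CDKN1C from -0.74 to 0.0653.

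Counts over all genes moved as well. In the sort 481 became 1263 by DESeq2, 1263 with all 8 RNA libraries, 1596 without the filter, 779 without GFP- replicate 1 and 7815 without GFP- replicate 2. For RNA of DE against hPSC 15591 became 6561 with all 8 libraries. For GFP- sBC against DE 13644 became 8919 and 8939 without DE replicate 1 or 2. For IP-Ribo of DE against hPSC 3573 became 1097, 1317 and 1888 without hPSC replicate 1, hPSC replicate 2 or DE replicate 1. For Ribo 5276 became 201 and 73 without hPSC replicate 1 or 2. For translational efficiency of DE against hPSC 37 became 752 by DESeq2, 69 without the filter, 22 with the block, 68 with total footprints, and 1 to 1730 with 1 library left out. Against hPSC and DE, GFP+ sBC gave 5214 and 4794 by DESeq2 in place of 3327 and 3144, and at the least 1748 and 1443 with 1 library left out. Within hPSC 5552 genes were higher and 7596 lower, or 6346 and 6572 with RLE size factors, and the median of all genes for translational efficiency of DE against hPSC moved from 0.16 to -0.06.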
